A study of Homo sapiens with 27 samples.

Results

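The mRNAs of 10 genes of the NF-kB pathway were followed in U937 cells, a human myeloid leukemia cell line, before and after exposure to matrine, an alkaloid of Sophora flavescens. They were chosen by name as the 5 Rel family subunits (NFKB1, NFKB2, RELA, RELB and REL) and 5 genes best known as feedback regulators of the pathway (NFKBIA, NFKBIE, NFKBIZ, TNFAIP3 and BIRC3), and all 10 were found among the 57905 gene identifiers of the table. The control group received the vehicle, ddH2O. The treated groups were exposed to matrine at 0.8 mg/ml, one for 30 min and the other for 24 h. Each group had 3 RNA-seq libraries, 9 in all, of 1 established line. The culture time of the control is not named, and the same 3 control libraries stood against both times. The methods speak in general of independent replicates, and the labels do not say that the libraries of a group came from separate cultures, so p-values measure the spread between these libraries, which may be technical. Samples of the HL-60 and K562 lines were not analysed here.

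NF-kB is a family of dimeric transcription factors built from the 5 Rel subunits. In resting cells the dimers are held in the cytoplasm by inhibitors of the IkB family, and signals from TNF, interleukin-1 or Toll-like receptors release them by way of the IKK kinases, which mark the inhibitors for destruction. A slower, noncanonical branch runs through the processing of the NFKB2 product p100 and the subunit RELB. Several of the genes that NF-kB switches on, among them NFKBIA and TNFAIP3, encode proteins that shut the pathway off again, and in monocytic cells this circuit governs the response to inflammatory signals.

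NF-kB dimers bind short DNA sites called kappaB sites, and the promoters of several of these genes carry one. RefSeq promoter windows (GRCh38.p14, 250 bases before to 50 after the annotated start) were at hand for 8 of the 10 genes, in 13 windows, and NFKBIE and RELB had no entry. The letters GGGANTTTCC, searched on both strands and written with known kappaB sites in view, stood in 6 of these 13 windows, 1 window in each of 6 genes, against 0.558% of all 35116 windows. The windows of RELA and BIRC3 held no match. The looser letters GGGNNNNNCC, which include the first form, stood in all 13 windows of these genes and in 58.7% of all windows. The 6 matches to the stricter letters are printed with their flanks, 60 bases each, because they show which form of these letters stood in each of the 6 genes. Matches to the looser letters alone, which also stand in these promoters, are not marked. The capitals mark the match, and each sequence is written 5′ to 3′ on the strand of its gene, so that a match on the opposite strand reads as the reverse complement.
NFKB1, chr4:102501285-102501344, plus strand: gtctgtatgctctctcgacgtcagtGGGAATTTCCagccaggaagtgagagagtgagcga
NFKB2, chr10:102395659-102395718, plus strand: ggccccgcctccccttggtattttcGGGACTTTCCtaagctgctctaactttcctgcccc
REL, chr2:60881503-60881562, plus strand: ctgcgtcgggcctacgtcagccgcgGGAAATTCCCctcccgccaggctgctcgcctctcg
NFKBIA, chr14:35404796-35404855, minus strand: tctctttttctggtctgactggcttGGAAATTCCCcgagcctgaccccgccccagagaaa
NFKBIZ, chr3:101827742-101827801, plus strand: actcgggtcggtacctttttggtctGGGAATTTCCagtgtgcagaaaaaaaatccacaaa
TNFAIP3, chr6:137867167-137867226, plus strand: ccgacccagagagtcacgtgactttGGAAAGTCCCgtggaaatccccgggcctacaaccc
Read on the strand of the match, NFKB1, REL, NFKBIA and NFKBIZ carried the same 10 letters, and NFKB2 and TNFAIP3 shared another form. A match is a description of the letters in the window and says nothing of binding in these cells.

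Total counts per library lay between 17314931 and 21930018, and mitochondrial genes took 3.59% to 3.92% of the counts. Of 10 myeloid markers, 9 had a mean above 1 FPKM (fragments scaled to gene length and library size) in the control and 30 min groups and all 10 did at 24 h, where the exception, MPO, came in. Their summed level was 620 to 636 FPKM in the control, 617 to 639 FPKM at 30 min and 848 to 867 FPKM at 24 h. It therefore moved with the 24 h group, and its part in the results at 24 h was not tested. Markers of erythroid cells summed to at most 0.42 FPKM and those of epithelial cells and fibroblasts to at most 0.11 FPKM. The lymphoid markers CD3D, CD3E, CD3G and MS4A1 were at 0 in every group. In bulk RNA, fewer cells with a transcript and less of it per cell cannot be told apart.

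FPKM corrects for gene length, so it allows a rough comparison of levels between genes. The gene lengths used are not given, and the order of genes depends on them. In the control, NFKB1, which encodes p105 and its product p50, was the most abundant at 13.2 ± 0.22 FPKM (SD, n = 3). NFKBIA, which encodes the inhibitor IkB-alpha, followed at 12.7 ± 0.75 FPKM, then NFKBIE (IkB-epsilon) at 11.04 ± 0.31 FPKM and RELA (the activating subunit p65) at 10.2 ± 0.47 FPKM. NFKB1 and NFKBIA overlapped in their libraries, and the other neighbours down to RELA did not. A lower tier held NFKB2 at 5.66 ± 0.60 FPKM and RELB, its noncanonical partner, at 3.70 ± 0.35 FPKM. Below them came TNFAIP3 (the ubiquitin-editing enzyme A20) at 2.48 ± 0.26 FPKM, REL (c-Rel) at 2.16 ± 0.36 FPKM, which overlapped with TNFAIP3, and NFKBIZ, a nuclear IkB protein, at 1.28 ± 0.23 FPKM. BIRC3, which encodes the ubiquitin ligase cIAP2, was close to absent at 0.153 ± 0.021 FPKM.

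At 30 min NFKBIA led at 15.03 ± 0.83 FPKM, ahead of NFKB1 at 13.3 ± 0.36 FPKM, and the libraries of these genes no longer overlapped. RELA and NFKBIE overlapped with each other, as did REL and TNFAIP3. At 24 h the inhibitors NFKBIA (15.4 ± 0.56 FPKM) and NFKBIE (14.8 ± 0.61 FPKM) stood above both NFKB1 (12.2 ± 0.16 FPKM) and RELA (11.8 ± 0.56 FPKM), with overlap inside each pair and none between the pairs. TNFAIP3, below RELB in the control, stood above it at 24 h, at 5.12 ± 0.41 FPKM against 2.84 ± 0.41 FPKM. The order of the levels was not tested.

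**Figure D1:**
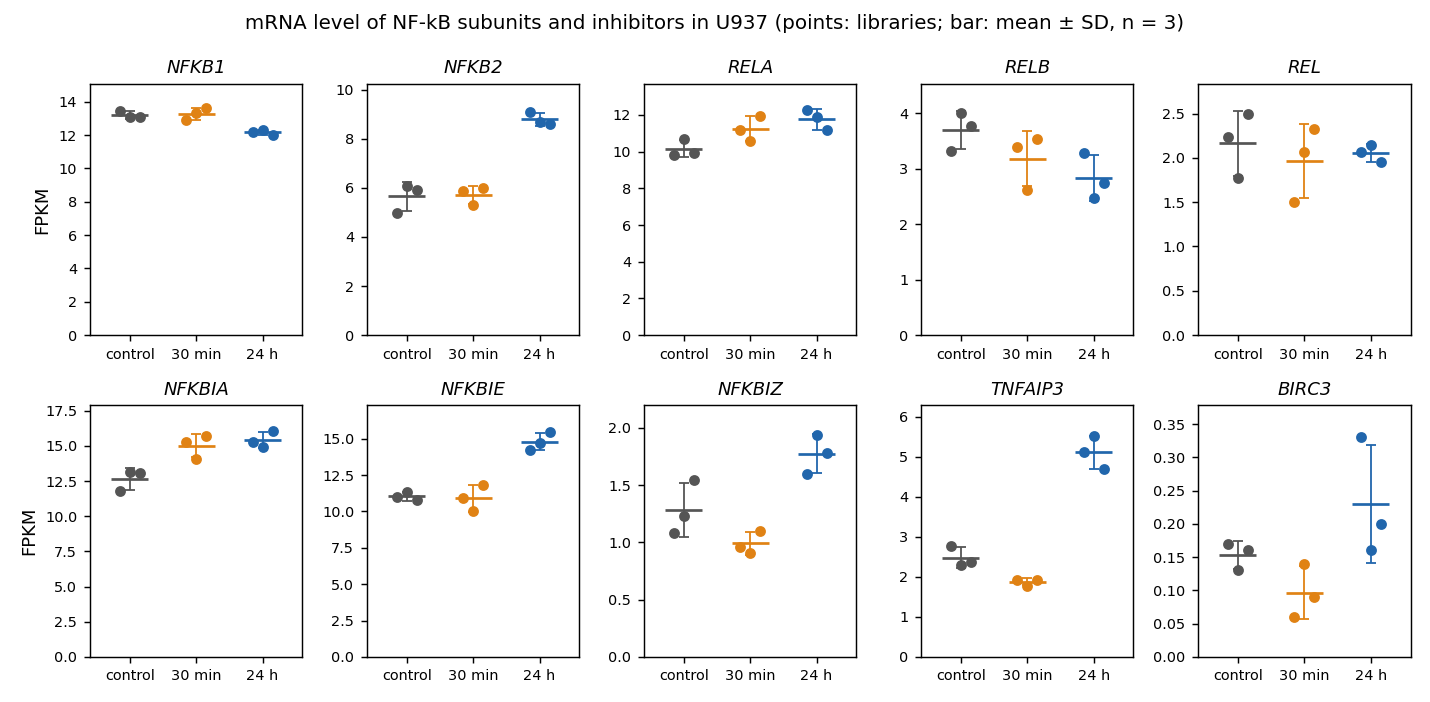
FPKM of each of the 10 genes in the control, 30 min and 24 h groups, with 1 point per library and a bar at the mean with the SD (n = 3). At 24 h NFKB2, NFKBIE, NFKBIZ and TNFAIP3 lie above and NFKB1 below all libraries of both other groups, and TNFAIP3 is lowest at 30 min, between 1.78 and 1.93 FPKM. Of all genes tested, 38.7% lay wholly above the control at 24 h and 31% wholly below. Against the 30 min group these shares were 39.9% and 28.6%.

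The first comparison asked whether 30 min of matrine altered these mRNAs. None of the 9 genes expressed highly enough to test passed it. A gene was tested when its mean was above 1 FPKM over the 6 libraries compared. It was said to rise or fall at an adjusted p below 0.05 (edgeR's quasi-likelihood test, Benjamini-Hochberg over all genes tested), and was called when the change was also at least 1.5-fold. At 30 min 0 of 9 genes were called lower and 0 of 9 higher, where 0.544% and 0.0949% of the 11587 genes tested were, and 0 of 9 passed by adjusted p alone, where 1.33% of all genes fell and 0.293% rose. At an unadjusted p below 0.05, 4 of the 9 passed, where 11.1% of all genes tested did. In the edgeR test as described, the smallest adjusted p was 0.0809. DESeq2 and limma called none. The median log2 fold change of the 9 was -0.0046, against -0.0043 for all genes tested.

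Of the feedback genes at 30 min, TNFAIP3 had a value below and NFKBIA one above the control, and none passed. TNFAIP3 stood at 2.77, 2.29 and 2.38 FPKM in the control libraries and at 1.92, 1.78 and 1.93 FPKM at 30 min. All 3 treated libraries lay below all 3 controls, as they did for 8.91% of all genes tested. The log2 fold change was -0.39 ± 0.11 (SE, 95% interval -0.62 to -0.16) with an edgeR adjusted p of 0.0809, so the difference missed the threshold. NFKBIA stood at 11.79, 13.12 and 13.05 FPKM in the control and at 15.26, 14.11 and 15.72 FPKM at 30 min. Here all treated libraries lay above the controls, with a log2 fold change of 0.26 ± 0.079 (95% interval 0.096 to 0.43, edgeR adjusted p = 0.118). Over all genes tested, 4.89% lay wholly above the control. Without the second 30 min library, which was the lowest of its group, NFKBIA passed, at 0.33 and an adjusted p of 0.0408. NFKBIZ stood at 1.08, 1.23 and 1.54 FPKM in the control and at 0.96, 0.91 and 1.10 FPKM at 30 min, groups that overlapped (log2 fold change -0.36 ± 0.15, edgeR adjusted p = 0.322). Its mean at 30 min was 0.99 FPKM, so NFKBIZ entered this test through the control, where its mean was higher. NFKBIE showed a log2 fold change of -0.0046 ± 0.083, with a 95% interval from -0.18 to 0.17.

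None of the 5 subunits passed at 30 min, and the groups overlapped for each of them. NFKB1 had a log2 fold change of 0.02 ± 0.058 (95% interval -0.10 to 0.14) and NFKB2 of 0.03 ± 0.090 (95% interval -0.16 to 0.22). These intervals leave out a 1.5-fold change in either direction for both genes. RELA was at 0.16 ± 0.069, REL at -0.13 ± 0.13 and RELB at -0.20 ± 0.14 on the same scale, with edgeR adjusted p-values of 0.371, 0.799 and 0.647.

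At 24 h the 4 tested feedback genes were higher than in the control, and the subunit genes moved in different directions. TNFAIP3, NFKB2, NFKBIZ, NFKBIE and NFKBIA rose, NFKB1 and RELB fell, and RELA and REL did not pass. Of 9 genes tested, 2 were called higher (TNFAIP3 and NFKB2) and 0 lower, where 15.1% of the 12035 genes tested were called higher and 11.2% lower. By adjusted p alone 5 rose and 2 fell, where 31.5% of all genes rose and 31.8% fell. At this time more of all tested genes passed than did not, and the counts of these 9 are to be read against that. Groups without overlap were common too. The 24 h libraries lay wholly above the control in FPKM for 38.7% of all genes tested and wholly below for 31%. The median log2 fold change of the 9 was 0.24, against 0.0082 for all genes.

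TNFAIP3 (ENSG00000118503, chr6:137867214-137883314, plus strand, GENCODE 44 on GRCh38, as are the gene positions that follow) changed most. It stood at 5.13, 5.52 and 4.70 FPKM at 24 h, and the lowest of these was far above the highest control library at 2.77 FPKM. The log2 fold change was 0.99 ± 0.10, or 1.99-fold with a 95% interval from 1.72 to 2.30 (edgeR adjusted p = 2.53e-08). It ranged from 0.81 to 1.07 over the alternatives in which it was tested. TNFAIP3 shares 95 exon bases with WAKMAR2, a long noncoding RNA on the opposite strand that is also in the table. The strand setting of the counting is not given in the sources used here, so reads in those bases cannot be assigned.

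The 3 IkB genes rose by smaller amounts. NFKBIE (ENSG00000146232, chr6:44258166-44265788, minus strand) stood at 10.99, 11.37 and 10.76 FPKM in the control and at 14.24, 14.73 and 15.45 FPKM at 24 h, with no overlap. Its log2 fold change was 0.38 ± 0.083, or 1.30-fold (edgeR adjusted p = 0.000471), and it passed in all alternatives. NFKBIA (ENSG00000100906, chr14:35401079-35404749, minus strand), at 15.28, 14.96 and 16.05 FPKM at 24 h, lay above every control library, at 0.24 ± 0.080 or 1.18-fold (edgeR adjusted p = 0.013). NFKBIA lost its call by adjusted p without the first control library, at 0.18 and 0.0929, without the third 24 h library, at 0.19 and 0.0784, and with no filter on FPKM, at 0.17 and 0.143. NFKBIZ (ENSG00000144802, chr3:101827991-101861022, plus strand), at 1.60, 1.94 and 1.78 FPKM at 24 h, cleared the highest control library only narrowly. It rose by 0.42 ± 0.14 or 1.34-fold (edgeR adjusted p = 0.0114), but not without the first control library (0.30, adjusted p = 0.0895) or the second 24 h library (0.36, adjusted p = 0.0575). NFKBIZ shares 194 exon bases with NXPE3 on the same strand.

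**Figure D2:**
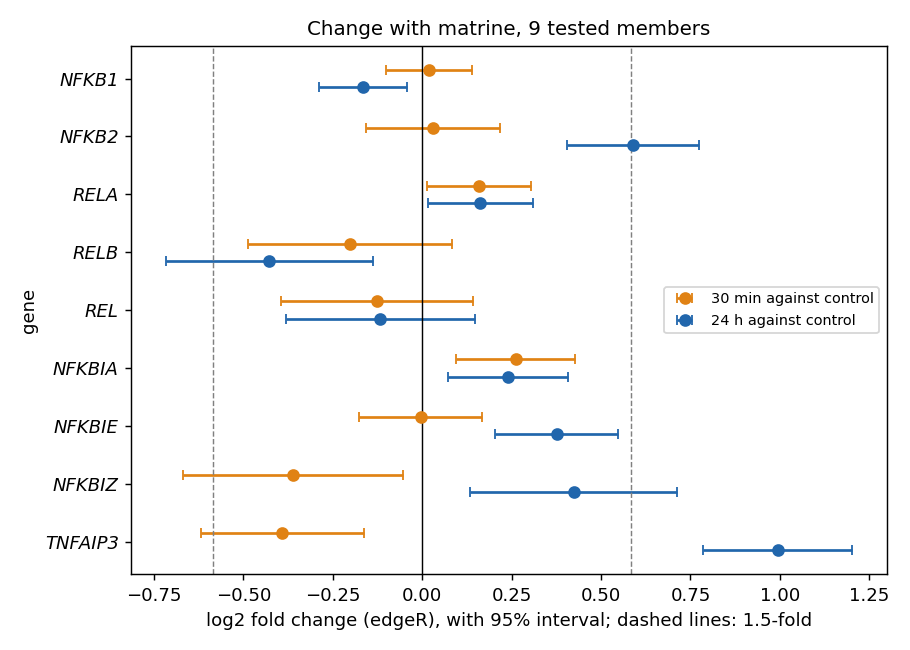
Log2 fold change (edgeR) against control of the 9 tested genes at 30 min (orange) and 24 h (blue), with 95% intervals; dashed lines mark 1.5-fold. The interval of TNFAIP3 lies below 0 at 30 min (-0.62 to -0.16, not passing after adjustment over all genes) and wholly above the upper dashed line at 24 h (0.79 to 1.20).

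NFKB2 (ENSG00000077150, chr10:102394110-102402524, plus strand) encodes p100, the precursor of p52 in the noncanonical branch. It stood at 4.98, 6.09 and 5.91 FPKM in the control and at 9.11, 8.68 and 8.59 FPKM at 24 h. The groups were well apart. The log2 fold change was 0.59 ± 0.088, or 1.505-fold with a 95% interval from 1.32 to 1.71 (edgeR adjusted p = 6.38e-06). This value sits almost on the 1.5-fold line, and NFKB2 was not called without the first control library (0.49), the first 30 min library (0.58) or the first 24 h library (0.57), nor with DESeq2 or its size factors (0.58 each), no filter (0.52) or limma on log2(FPKM + 1) (0.56). Its adjusted p stayed at or below 0.000123 in every alternative.

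RELB (ENSG00000104856, chr19:45001461-45038192, plus strand), the usual partner of p52, stood at 3.32, 4.0 and 3.77 FPKM in the control and at 3.29, 2.48 and 2.75 FPKM at 24 h. The highest treated library lay just under the lowest control. RELB fell by 0.43 ± 0.14 on the log2 scale, 1.34-fold lower (edgeR adjusted p = 0.0109). Without the second 24 h library, the lowest, the change was -0.33 with an adjusted p of 0.0693.

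NFKB1 (ENSG00000109320, chr4:102501330-102617302, plus strand) stood at 13.46, 13.06 and 13.09 FPKM in the control and at 12.20, 12.31 and 12.00 FPKM at 24 h. The spread within each group was small and the groups did not overlap. NFKB1 fell by 0.17 ± 0.059 on the log2 scale (edgeR adjusted p = 0.0184), and lost its call without the first control library (-0.16, adjusted p = 0.055), the first 24 h library (-0.16, adjusted p = 0.062) or the second 24 h library (-0.17, adjusted p = 0.0517), and with library totals in place of TMM (-0.12, adjusted p = 0.0836) or a mean above 5 FPKM (-0.11, adjusted p = 0.0844). RELA (ENSG00000173039, chr11:65653599-65663090, minus strand) stood at 9.84, 10.70 and 9.95 FPKM in the control and at 12.27, 11.87 and 11.16 FPKM at 24 h, all above. Its log2 fold change of 0.16 ± 0.071 had an edgeR adjusted p of 0.0502 and passed in 8 of 18 alternatives, among them without the second control library (0.19, adjusted p = 0.0289) and without the second or the third 30 min library (0.16, adjusted p = 0.0357 and 0.0286). REL (ENSG00000162924, chr2:60881491-60931612, plus strand) overlapped between the groups, at 2.23, 1.77 and 2.49 FPKM in the control and 2.07, 2.15 and 1.95 FPKM at 24 h. Its log2 fold change was -0.12 ± 0.13 (95% interval -0.38 to 0.15). REL shares 5702 exon bases with a long noncoding RNA on the same strand, so its count depends on how shared reads were assigned.

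The 24 h and 30 min groups were then compared directly, which tests whether the levels differed between the treated groups. No control was matched to each time, so time in culture and length of exposure cannot be told apart in this difference. TNFAIP3 rose most, by 1.37 ± 0.10 or 2.58-fold (edgeR adjusted p = 2.94e-10), and NFKBIZ rose by 0.76 ± 0.14 or 1.70-fold (edgeR adjusted p = 7.95e-05). Both were called, so 2 of 9 genes were called higher and 0 lower, where 15.4% and 11.5% of the 11981 genes tested were. NFKB2 (0.54 ± 0.088) and NFKBIE (0.36 ± 0.082) also rose and NFKB1 fell by 0.21 ± 0.058, which makes 4 higher and 1 lower by adjusted p alone, where 32.5% and 32.6% of all genes were. Of all calls in this comparison 42.8% were lower, and with library totals in place of TMM 32.6%. NFKBIZ had a mean of 0.99 FPKM at 30 min, just under the limit for testing, and entered this comparison through the 24 h group.

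NFKBIA did not follow the other inhibitors between the times. Its level was 14.11 to 15.72 FPKM at 30 min and 14.96 to 16.05 FPKM at 24 h, groups that overlapped, and the log2 difference was -0.04 ± 0.079 (95% interval -0.21 to 0.12). RELA (-0.02 ± 0.070), REL (-0.01 ± 0.13) and RELB (-0.25 ± 0.14) did not pass either. RELB passed without the second 30 min library, its lowest at that time, at -0.38 with an adjusted p of 0.0236.

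BIRC3 (ENSG00000023445, chr11:102317484-102339403, plus strand) was below the limit for testing. It had 27, 19 and 21 counts in the control libraries, 10, 21 and 13 at 30 min, and 50, 24 and 33 at 24 h. The groups overlapped except that all 24 h libraries exceeded all 30 min ones. With no filter on FPKM, over 28848 genes, the log2 fold change was -0.70 ± 0.35 at 30 min (edgeR adjusted p = 0.659), 0.43 ± 0.31 at 24 h (adjusted p = 0.356) and 1.14 ± 0.33 between the times (adjusted p = 0.00277). The last rests on between 10 and 50 counts per library.

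The balance of the 5 Rel subunits was described as each one's share of their summed FPKM. The size of each share depends on the gene lengths used, which are not given. The sum itself was 34.9 ± 0.94 FPKM in the control, 35.4 ± 1.83 FPKM at 30 min and 37.6 ± 1.25 FPKM at 24 h. At 24 h the share of NFKB2 was 23.4% ± 0.21, against 16.2% ± 1.29 in the control, while that of NFKB1 was 32.4% ± 0.89 against 37.9% ± 1.67. RELB was at 7.54% ± 0.92 against 10.6% ± 0.72, and RELA at 31.3% ± 0.56 against 29.1% ± 0.89. For these 4 subunits the 3 libraries at 24 h lay wholly to one side of the controls, and REL overlapped (5.47% ± 0.23 against 6.21% ± 1.10). With 3 libraries against 3, the two-sided exact permutation test cannot go below p = 0.1, which each of the 4 reached, and the p adjusted over the 10 comparisons was 0.167.

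At 30 min the shares of NFKB1 (37.6% ± 1.51) and NFKB2 (16.2% ± 0.60) overlapped with the control, as did REL (5.54% ± 1.07). RELA, at 31.8% ± 0.45, lay above every control library, and RELB, at 8.97% ± 1.09, below (exact permutation p = 0.1 for each, the smallest possible).

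**Figure D3:**
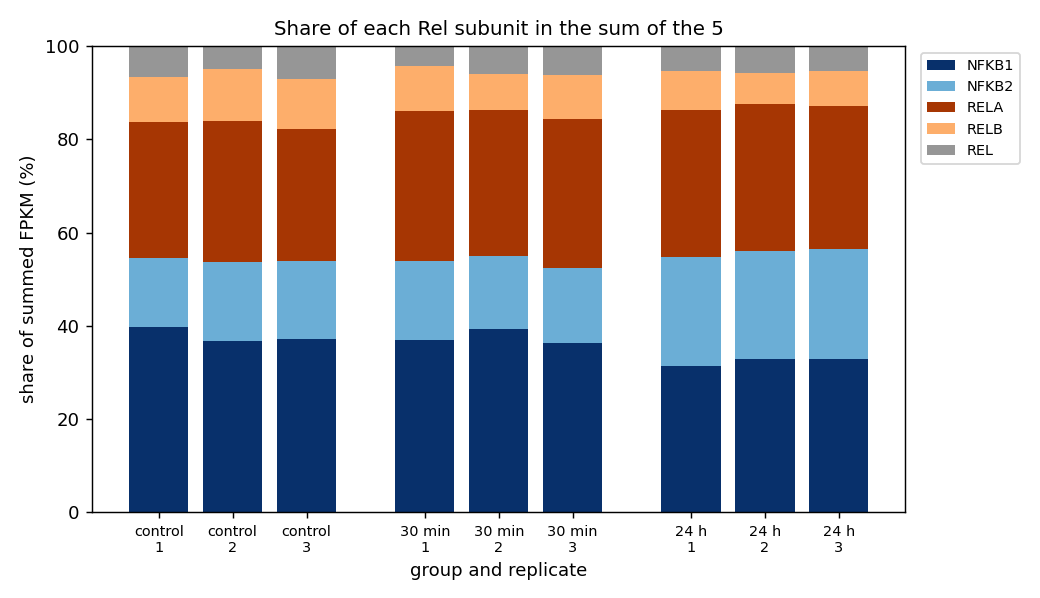
Share (%) of each Rel subunit in the summed FPKM of the 5, stacked for each of the 9 libraries. The NFKB2 segment is 14.7% to 17.1% of the column in the control libraries and 23.2% to 23.6% at 24 h.

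Ratios between pairs of genes were chosen after the values were seen and are descriptions. NFKB2 exceeded RELB 1.53 ± 0.034 times in the control (SD, n = 3), 1.82 ± 0.18 times at 30 min and 3.13 ± 0.37 times at 24 h, with no overlap of either treated group with the control. TNFAIP3 stood at 0.188 ± 0.016 of the NFKB1 level in the control, 0.141 ± 0.0076 at 30 min and 0.420 ± 0.028 at 24 h, again without overlap. NFKBIA relative to RELA was 1.25 ± 0.059 in the control, 1.34 ± 0.024 at 30 min and 1.31 ± 0.11 at 24 h, and the 24 h libraries overlapped with the control.

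Of the wider pathway, 5 lists of genes were read in the same fit, and they were written with earlier results of these data known. They are described by counts, beside the background shares given above. The genes named are those with the largest called changes in each list. At 30 min none of the other IkB genes (3 tested), the IKK complex and upstream kinases (9 tested), the receptors and adaptors (26 tested) or the other negative regulators (17 tested) was called or passed by adjusted p alone. Among 27 tested target genes of NF-kB, 6 were called lower and 0 higher, where 0.544% and 0.0949% of all genes tested were. CXCL8, the neutrophil chemokine interleukin-8, fell from 8.84 ± 0.89 to 1.71 ± 0.21 FPKM (log2 fold change -2.35 ± 0.13, edgeR adjusted p = 2.95e-10). TNF, the cytokine, fell from 5.81 ± 0.21 to 1.31 ± 0.35 FPKM (-2.14 ± 0.17), and CCL2, the monocyte chemokine, from 42.1 ± 1.30 to 10.3 ± 1.36 FPKM (-2.03 ± 0.097). The others called lower were F3, IER3 and IL1B, the last named after its values were seen. Of the 2 groups compared, these 3 were above 1 FPKM in the control alone and entered the test through the group where they are high. The median of the tested targets was -0.11, against -0.0043 for all genes, and none of the 9 tested subunit and feedback genes passed at this time.

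At 24 h, 15.1% of all genes tested were called higher and 11.2% lower. Of 4 tested other IkB genes, 1 was called higher and 0 lower. This was BCL3, a nuclear IkB protein that pairs with p50 and p52, which rose from 0.477 ± 0.057 to 2.49 ± 0.29 FPKM (log2 fold change 2.33 ± 0.20, edgeR adjusted p = 2.09e-09). BCL3 was above 1 FPKM at 24 h alone, so it entered the test through the group where it is high, and it was not tested at 30 min against control. Among the kinases 1 of 9 was called higher and 0 lower, namely MAP3K8 (Tpl2), which binds the NFKB1 product p105 and stood at 7.38 ± 0.47 against 2.86 ± 0.24 FPKM (1.32 ± 0.11). Named after their values were seen, the catalytic IKK genes moved apart below the 1.5-fold limit, IKBKB up by 0.48 ± 0.074 and CHUK down, at -0.29 ± 0.075 (edgeR adjusted p = 8.06e-06 and 0.00193). NFKBIB, the gene of IkB-beta, also named afterwards, fell by 0.42 ± 0.069 (edgeR adjusted p = 2.08e-05), opposite to NFKBIA and NFKBIE.

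Of 27 receptors and adaptors tested at 24 h, 5 were called higher and 1 lower, where 15.1% and 11.2% of all genes tested were. IRAK4, the proximal kinase of Toll-like receptors, was higher at 1.02 ± 0.081, BIRC2 (cIAP1), the relative of BIRC3, at 0.86 ± 0.090, and TRADD, the TNF receptor adaptor, at 0.80 ± 0.10, with edgeR adjusted p-values of at most 7.8e-07. TRAF3, which holds the noncanonical branch off, was lower at 9.37 ± 0.47 against 13.7 ± 1.05 FPKM (log2 fold change -0.60 ± 0.064). TRAF3 lay close to the 1.5-fold limit and was not called without the third control library (-0.55), without the first 24 h library (-0.57), or with library totals in place of TMM (-0.55), a mean above 5 FPKM (-0.54) or limma (-0.54 and -0.50). Of 17 other negative regulators, 2 were called higher and 1 lower, against the same shares of all genes. CYLD, a deubiquitinase that dampens IKK, rose by 1.06 ± 0.098, and SIGIRR, an inhibitory receptor of the interleukin-1 family, by 0.70 ± 0.10. NKRF, a repressor of NF-kB target promoters, fell by 0.85 ± 0.084, and the largest edgeR adjusted p of the 3 was 3.91e-06.

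Of 29 target genes tested at 24 h, 10 were called higher and 4 lower, and 18 rose and 6 fell by adjusted p alone. Of all genes tested, 15.1% were called higher and 11.2% lower, and 31.5% rose and 31.8% fell by adjusted p alone. CXCL8 (-2.36 ± 0.13) and CCL2 (-2.27 ± 0.098) were again below the control, F3 (tissue factor) was at -1.85 ± 0.18, and TNF was at -0.72 ± 0.15. SLC2A6, a sugar transporter of macrophages, at 1.83 ± 0.21, IER3, an early response gene, at 1.29 ± 0.23, and TNFAIP2, a TNF-induced gene, at 1.28 ± 0.062 were higher. Of the 10 called higher, 2 were above 1 FPKM at 24 h alone, SLC2A6 and LTB, the latter named after its values were seen. Of the 4 called lower, F3 was above 1 FPKM in the control alone. Each of these entered the test through the group where it is high, and SLC2A6 was not tested at 30 min against control. The largest edgeR adjusted p among the 7 genes given with their changes was 0.00022, that of TNF. IER3 thus lay below the control at 30 min (-1.50 ± 0.31) and above it at 24 h. Without the first 30 min library its value at 30 min was -1.26 with an edgeR adjusted p of 0.0757, and without the third it was -1.42 with 0.0528. The median of the targets was 0.35, against 0.0082 for all genes. Between the times 13 of 28 targets were called higher and 0 lower, where 15.4% and 11.5% of all genes tested were. Of the 13, 4 were above 1 FPKM at 24 h but not at 30 min, IER3 and SLC2A6 among them. The myeloid marker sum was also higher at 24 h, and these lists hold genes of myeloid cells, so the part of that shift in these counts was not tested.

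**Figure D4:**
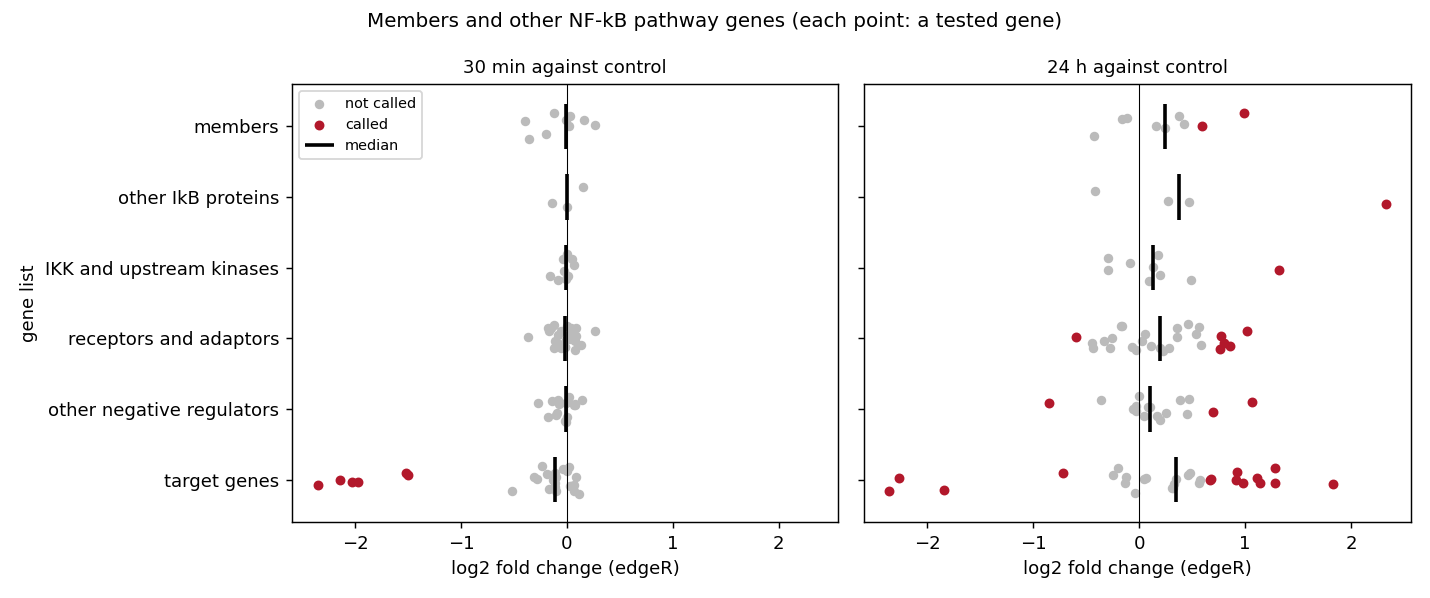
Log2 fold change (edgeR) of each tested gene in the 10-gene set (members) and in the 5 lists, at 30 min (left) and 24 h (right), with called genes in red and the list median as a black bar. At 30 min called genes appear in the target list alone, 6 of 27 and all lower, and at 24 h each list holds at least 1 called gene. Of all genes tested, 0.544% were called lower at 30 min, and 15.1% were called higher and 11.2% lower at 24 h.

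The genes whose levels over the 9 libraries most resembled those of NFKBIA and RELB were listed as a description, from 12238 genes. For NFKBIA they included SNX1 (Pearson r = 0.97 on log2 CPM), WDR41 (0.90) and ERP29 (0.90), and for RELB NMRAL1 (0.96), PLK3 (0.95), ZNF32 (0.93) and FAM222A (0.92). The remaining genes among the 5 closest had no symbol in the gene table. The 9 points fall into 3 groups and share library depth, so the values carry no p.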

How the data were processed

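RNA-seq libraries of U937 cells in 3 groups of 3 were used, grouped by their titles. The submitters' processing notes name cutadapt 1.9.1, HISAT2 2.0.1 and HTSeq 0.6.1, and the authors deposited unnormalized counts per gene. The deposited FPKM values were made by the authors from the same counts and are rounded to 2 decimals. The labels name GRCh37 and the methods hg38. The table holds no coordinates, and those printed are RefSeq promoter windows of GRCh38.p14 and GENCODE 44 gene spans on GRCh38. Annotation release, strand setting and the handling of reads with several matches are not given in the sources used here, and both poly(A) selection and rRNA removal are named. Of 57905 identifiers, 51996 matched a symbol of GENCODE 44. 7 list symbols (IKBKG, IKBKE, OTUD7B, CCL3, CCL4, CCL5 and SOD2) were not matched.

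Counts of the 9 libraries were fitted together with edgeR 4.0.16 (R 4.3.3; TMM, quasi-likelihood test) on genes with a mean above 1 FPKM over the 6 libraries compared. The SE was taken as log2 fold change / square root of F. Calls needed a Benjamini-Hochberg adjusted p below 0.05 over all genes tested and a change of at least 1.5-fold, the thresholds of the study. Alternatives were DESeq2 1.42.0, limma 3.58.1 on log2(FPKM + 0.1) and log2(FPKM + 1), other filters, scalings and fold limits, a replicate block, the 6 libraries alone, and each library left out. On simulated data for the 24 h comparison, the fit called 184 of 200 genes given a 2-fold change among 12035, and 1 false call was made. In the real comparison far more genes passed, 31.5% higher and 31.8% lower by adjusted p alone. The simulation therefore does not measure the error of the calls in these data. With 3 libraries a group, exact permutation tests cannot give a p below 0.1. Within each group, libraries differed beyond sampling noise (chi-square per degree of freedom 2.21 to 13.9), so none was merged. Libraries held 17314931 to 21930018 counts, and counting error weighs most on BIRC3, with 10 to 50 counts a library.

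The 10 genes and the pathway lists were chosen with earlier results of these data known. Named from the lists were at most 3 called genes per direction with the largest change against control, and for NFKBIA and RELB the 5 genes of most similar level. Other genes are marked as named after their values were seen. HL-60 and K562 libraries were not analysed here. Other lymphoid markers are not reported here.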

Additional observations from a re-analysis of the deposited data

Results flagged for a closer look

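For 5 of the 9 tested genes the level at 24 h differed from that at 30 min. This was the direct comparison of the treated groups (log2 difference, 24 h minus 30 min, edgeR adjusted p below 0.05). It cannot tell time in culture from length of exposure. Of all 11981 genes tested, 32.5% were higher and 32.6% lower by the same test, so a share like that of the 9 held over all genes. Above the 30 min level were TNFAIP3 by 1.37, NFKBIZ by 0.76, NFKB2 by 0.54 and NFKBIE by 0.36. NFKB1 was below it, at -0.21, which did not pass with library totals in place of TMM (-0.13, adjusted p = 0.0631). The interval of NFKBIA included 0, and its difference did not pass.

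Of the wider pathway lists, 59 genes passed the same test between the times, 47 higher and 12 lower at 24 h. Tested were 4 other IkB genes, 9 kinases, 27 receptors and adaptors, 17 negative regulators and 28 target genes. Over all genes tested, 32.5% were higher and 32.6% lower. Among the 59 are 14 of the genes named above for their change against control, 11 of them higher. The nuclear IkB gene BCL3 differed by 2.67 and the kinase gene MAP3K8 by 1.39. Of the receptors and adaptors, IRAK4 differed by 0.98, BIRC2 by 0.78, TRADD by 0.70 and TRAF3 by -0.50. Of the negative regulators, CYLD differed by 1.05, SIGIRR by 0.60 and NKRF by -0.79. Of the target genes, IER3 differed by 2.77, SLC2A6 by 1.40, TNF by 1.40, TNFAIP2 by 1.17 and CCL2 by -0.26. At 30 min BCL3 (0.37 FPKM), IER3 (0.53 FPKM) and SLC2A6 (0.73 FPKM) were below 1 FPKM. So were IL1B (0.70 FPKM), LTB (0.61 FPKM) and TIRAP (0.88 FPKM), which are also among the 47 and were named after their values were seen. All of these entered this test through the 24 h group, where they are high. CCL2 did not pass in 9 of 18 alternatives, among them without the second (-0.21) or the third (-0.22) 30 min library and without the first (-0.20) or the second (-0.27) 24 h library. With 3 libraries a group, single libraries were not tested for standing apart.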

How the results depend on the processing

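The count of members called at 30 min was 0 in each direction under all 20 alternatives. Of the 2 genes called higher at 24 h, 1 remained with no filter, with DESeq2 size factors, with DESeq2 and with limma on log2(FPKM + 1), each time TNFAIP3, and 1 with a mean above 5 FPKM, NFKB2, since TNFAIP3 then was not tested. With no fold limit 5 genes were higher and 2 lower, with a 2-fold limit 0 were higher, and leaving out single libraries gave 1 to 2. Between the times the 2 called higher became 4 with no fold limit (and 1 lower), 1 with a 2-fold limit or limma on log2(FPKM + 1), each time TNFAIP3, and 1 with a mean above 5 FPKM, NFKB2, which is not among the 2. With the replicate number as a block these counts stayed at 2, 2 and 0. Libraries of equal number did not visibly deviate together (correlations -0.133 to 0.090, 0 of 9 pairs over 0.1). Those of unequal number spanned -0.137 to 0.189. This does not settle whether the numbers pair the samples.

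Of 474 alternative log2 fold changes of members, 427 kept their direction and side of the threshold, 12 lost it, 10 gained it and 25 changed sign, all among values near 0. At 30 min NFKBIE became 0.0059 with no filter, 0.0098 with DESeq2 size factors and 0.0098 with DESeq2. Leaving out single libraries gave NFKBIE -0.061 to 0.081, NFKB2 -0.041 to 0.109 and REL -0.26 to 0.033. Between the times REL became 0.067 with library totals, 0.084 with limma on log2(FPKM + 0.1), 0.054 with log2(FPKM + 1), and -0.17 to 0.12 without single libraries. RELA became 0.061 with a mean above 5 FPKM, 0.064 with library totals, 0.064 and 0.060 with limma, and -0.067 to 0.028 without single libraries. NFKBIA became 0.035 with a mean above 5 FPKM, 0.038 with library totals, and 0.038 and 0.036 with limma. At 30 min the share of NFKB1 moved between -1.18 and 0.631 percentage points without single libraries and that of NFKB2 between -0.783 and 0.405. The causes were not tested.

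Alternatives for the pathway lists, their named genes and the ratios were added after the data were seen. Of 702 alternative values of 19 named list genes, in the comparisons they passed, 691 kept their side, 11 lost it (CCL2 between the times and IER3 at 30 min) and 0 changed sign. With a mean above 5 FPKM the target genes called lower at 30 min went from 6 to 2, and with no filter those at 24 h from 4 to 7. No difference of a ratio between members changed sign when single libraries were left out. Depth limits BIRC3 most among the 10 genes, and the number of libraries limits the shares, whose exact tests cannot pass.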
